A study of Mus musculus with 12 samples.

Results

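Genes of the ubiquitin system were followed in hippocampal RNA of mice lacking the transcription factors CREB and CREM and of control mice, after kainate or saline. The members are the probe sets of the array with exactly 1 platform gene symbol, where that symbol starts with Ube2 or Ube3, or with Usp, Fbxo, Fbxl, Fbxw, Rnf, Trim or Cul and then a digit. This gave 151 probe sets for 110 genes among 11868 probe sets, control probe sets left out. Of these, 65 probe sets for 53 genes reached a log2 signal of 4 on at least 3 of the 12 arrays and were tested, and 86 did not. The rule uses symbols alone and no measured value, but it was set with earlier results of these data known.

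Each of the 4 groups holds 3 arrays (Affymetrix, array C of the murine U74 set). They are mutant mice after kainate, mutant mice after saline, control mice after kainate and control mice after saline. Mutants lacked CREB and CREM, but their alleles, any Cre driver and the genotype of the controls are not stated in the sources used here. The mice were littermates of both sexes, 5 to 6 weeks old, housed singly and handled for 5 days. They were killed 1 hour after an intraperitoneal injection of kainate (20 mg/kg), a glutamate receptor agonist that provokes seizures, or of saline. Each array carries RNA pooled from 3 animals, so every error and p-value below measures the spread between pools, not between animals. Values are the deposited log2 signals (GCRMA), differences are log2, and "±" on a difference is the standard error of limma's fit over all 3541 tested probe sets. "Called" means an adjusted p under 0.05 over those 3541.

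Ubiquitin is attached to proteins in steps: an activating enzyme hands it to a conjugating enzyme (the Ube2 proteins), and a ligase brings that enzyme to the substrate. Many ligases are RING-type proteins, among them most Rnf and Trim proteins, and others are built on a cullin scaffold (Cul) with an F-box protein (Fbxo, Fbxl, Fbxw) as a receptor for the substrate. Proteases of the Usp family remove ubiquitin again. In neurons this system sets the turnover of synaptic receptors and scaffolds, and it is part of activity-dependent remodelling of synapses.

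The share of members that could be tested was 43.0%, against 29.8% of all 11868 probe sets and 35.2% of the 7717 probe sets with 1 symbol. By role, 6 of 26 Ube2 probe sets were tested, 3 of 7 of cullins, 9 of 24 of F-box proteins, 33 of 68 of RING-type proteins (23 of 42 Rnf and 10 of 26 Trim) and 14 of 25 of Usp proteases. The single probe set of Ube3a, the HECT ligase lost in Angelman syndrome, ran from 3.34 to 3.54 and was not tested. Among the tested probe sets 55 reached log2 4 on all 12 arrays and 10 on 3 to 11 of them. Among the others 81 reached it on 0 arrays and 5 on 1 or 2. Rnf20, a ligase for histone H2B, passed with 4.10 on the third of its arrays in order of signal, and Rnf141 with 4.26. Just outside, the third array read 3.97 for another probe set of Ube2j1 and 3.92 for Ube2e1.

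The tested conjugating enzymes were Ube2d1, Ube2e2, Ube2j1, Ube2n and Ube2q2. The sixth Ube2 probe set is that of Ube2d-ps, which RefSeq lists as a non-coding RNA and which is drawn among the conjugating enzymes in the figures. Cullins were measured by Cul2 (2 probe sets) and Cul5, and F-box proteins by Fbxl12, Fbxl17, Fbxl19, Fbxl20, Fbxo7, Fbxo17, Fbxo44 and Fbxw9. The Rnf genes were Rnf4, Rnf10, Rnf13, Rnf20, Rnf25, Rnf32, Rnf41, Rnf103, Rnf138, Rnf141, Rnf157, Rnf182, Rnf185, Rnf213, Rnf214 and Rnf223. The Trim genes were Trim2, Trim9, Trim23, Trim28, Trim37, Trim41, Trim56, Trim65 and Trim69. The proteases were Usp5, Usp21, Usp26, Usp29, Usp30, Usp31, Usp33, Usp35, Usp46, Usp48, Usp53 and Usp54. Of the untested genes, 57 in all, several are studied in neurons: Fbxl2, Fbxo3, Rnf146 and Ube2k stayed under log2 4 on every array. A signal depends on the probes as well as on the transcript, so signals of different probe sets are not set against each other, and 22 of the 65 tested probe sets have an identifier ending in _f_at, _i_at or _r_at, which the manufacturer gives to sets with probes that may be shared or were chosen under relaxed rules.

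**Figure D1:**
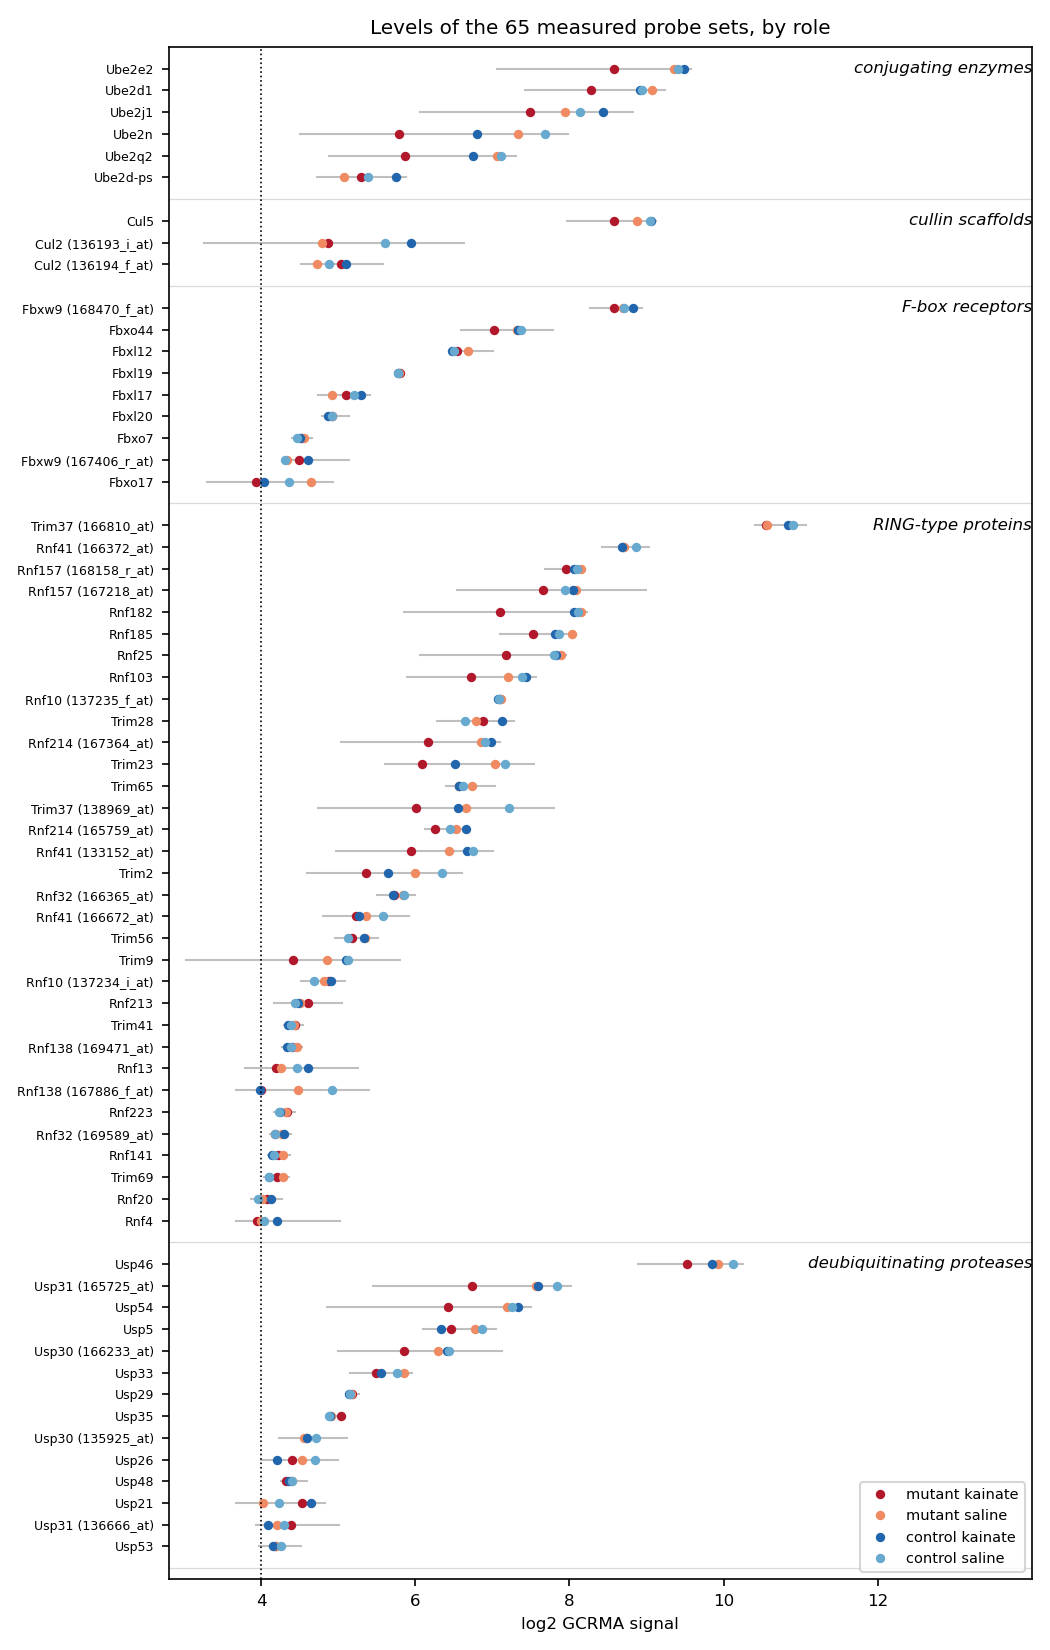
Log2 GCRMA signal (horizontal axis) of the 65 tested member probe sets (rows, by role), with points for the means of the 4 groups of 3 arrays, a grey line for the range over the 12 arrays and a dotted line at log2 4. Ube2n spans 4.50 to 7.98 over the arrays, while Fbxl19 spans 5.75 to 5.81.

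The arrays differ in ways that touch the members. Array medians ran from 3.26 to 3.41 and SDs from 1.71 to 1.78, except mutant kainate replicate 3 with an SD of 1.52. That array held the lowest value of 37 of the 65 members (56.9%), against 38.9% of all tested probe sets. Replicate 1 of every group differs from replicates 2 and 3: the 3' minus 5' actin signal, a measure of RNA quality, was 1.61 to 1.77 after kainate and 1.92 to 2.00 after saline in replicate 1, but 2.20 to 2.44 after kainate and 1.74 to 1.83 after saline in replicates 2 and 3. Some comparisons of group means below leave out mutant kainate replicate 3. In these, replicate 1 weighs more in the mutant kainate mean than in the means of the other groups. The array labelled control kainate replicate 3 read 12.95 for Gfap, whereas replicates 1 and 2 of that group read 11.51 and 11.53 and the mutant arrays 11.55 to 13.03. The tested probe set of Creb1 (4.77 to 5.11 over all arrays) and that of Crem (4.37 to 4.83) were not lower in mutants, and whether they lie in the deleted parts is not stated in those sources. Summed over 6 of 12 listed genes, neuronal activity genes reached log2 11.09 to 11.85 in mutant kainate, 10.08 to 10.29 in mutant saline, 11.91 to 12.06 in control kainate and 10.21 to 10.31 in control saline. Neurons were represented by 1 of 11 listed markers, Slc17a7, at 6.99 to 8.40 in mutant kainate, 7.92 to 8.37 in mutant saline, 8.11 to 8.26 in control kainate and 7.89 to 7.95 in control saline, and hippocampal regions by 1 of 9, Cpne4, at 4.31 to 4.69 over all arrays.

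CREB and CREM bind the cAMP response element, whose full palindrome is TGACGTCA and whose core is TGACG. RefSeq promoter windows on GRCm38.p6, each from 250 bases before to 50 bases after an annotated start, were available for 91 of the 110 member genes and 47 of the 53 tested ones. The full palindrome lay in 2 of the 63 windows of tested members (3.17%), against 588 of all 32851 windows (1.79%). Over the windows of all members, tested or not, it was the same 2 of 114 (1.75%). Those windows belong to Usp29, an imprinted neighbour of Peg3, and to Fbxw9, and they are shown because they hold the motif of the deleted factors, in capitals.

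Usp29: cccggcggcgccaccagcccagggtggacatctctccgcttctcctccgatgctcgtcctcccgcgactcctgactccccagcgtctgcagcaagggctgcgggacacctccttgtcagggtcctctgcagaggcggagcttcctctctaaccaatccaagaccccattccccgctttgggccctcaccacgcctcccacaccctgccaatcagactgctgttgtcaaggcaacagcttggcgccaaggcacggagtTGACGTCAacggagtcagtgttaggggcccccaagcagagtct
Fbxw9: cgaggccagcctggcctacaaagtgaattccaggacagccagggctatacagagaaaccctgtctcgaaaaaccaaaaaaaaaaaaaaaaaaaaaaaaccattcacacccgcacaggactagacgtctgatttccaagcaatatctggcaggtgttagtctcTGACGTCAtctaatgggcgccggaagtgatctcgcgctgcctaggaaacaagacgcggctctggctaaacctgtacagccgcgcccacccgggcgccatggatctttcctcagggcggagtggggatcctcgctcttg

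The Usp29 window is chr7:6730333-6730632 on the plus strand, with the motif at position 7 when the start counts as 0. The Fbxw9 window is chr8:85059869-85060168 on the plus strand, with the motif at position -88. Usp29 read 5.14, 5.15 and 5.27 on the mutant kainate arrays, 5.14, 5.20 and 5.15 after saline in mutants, 5.21, 5.11 and 5.11 after kainate in controls and 5.13, 5.20 and 5.14 after saline in controls. Its groups overlapped, and the whole range over 12 arrays was 0.16. Fbxw9 (168470_f_at) read 8.74, 8.71 and 8.27 in mutant kainate, 8.75, 8.65 and 8.68 in mutant saline, 8.79, 8.74 and 8.95 in control kainate and 8.72, 8.71 and 8.68 in control saline. Its control kainate arrays lay above the control saline arrays by a mean of 0.12 ± 0.12 (adjusted p = 1 in limma), so the gap was no larger than its error. The other tested probe set of Fbxw9, 167406_r_at, read 4.33, 4.74 and 4.41 in mutant kainate and 4.33, 4.36 and 4.33 in mutant saline. In controls it read 4.35, 5.15 and 4.33 after kainate and 4.33, 4.28 and 4.34 after saline. Its groups overlapped, and its averaged kainate difference was 0.22, against 0.00 in 168470_f_at. Neither probe set was called.

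The core TGACG, searched on both strands and held in duplicate by the full palindrome, was in 34.9% of the windows of tested members. It was in 29.8% of the windows of all members and in 20.8% of all windows. Counted by gene, 20 of 47 tested members had it (42.6%) and 32 of 91 members (35.2%), against 23% of all genes. The tested members passed a signal filter that the genes of all windows did not, so these shares are not like for like. A match is a description of letters, and binding was not measured. Among the members called after kainate within replicates 2 and 3, described below, the windows of Ube2q2, Trim37 and Usp21 hold no core. Each Fbxo17 window holds 1 core, and so do some of the Trim2 windows. For Usp5, Rnf138 and Usp33, also called there, no window was available. The windows of Ube2n and Trim23, also described below, each hold 1 core, in capitals (CGTCA is TGACG read on the other strand).

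Ube2n: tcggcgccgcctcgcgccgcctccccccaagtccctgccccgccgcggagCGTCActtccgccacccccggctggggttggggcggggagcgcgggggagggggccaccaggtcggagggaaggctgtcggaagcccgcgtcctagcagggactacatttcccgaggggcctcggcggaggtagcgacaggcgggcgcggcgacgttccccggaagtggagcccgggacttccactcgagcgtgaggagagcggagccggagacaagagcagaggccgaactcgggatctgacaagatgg
Trim23: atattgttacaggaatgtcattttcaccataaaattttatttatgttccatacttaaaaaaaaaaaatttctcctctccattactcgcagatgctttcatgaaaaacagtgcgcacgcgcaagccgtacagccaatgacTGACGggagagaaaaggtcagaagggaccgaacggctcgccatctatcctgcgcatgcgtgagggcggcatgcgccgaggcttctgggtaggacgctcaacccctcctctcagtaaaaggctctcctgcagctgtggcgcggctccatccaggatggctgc

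These are chr10:95514912-95515211 with the core at position -200, and chr13:104178589-104178888 with the core at position -111, both on the plus strand.

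Kainate was compared with saline first within each genotype. In control mice 0 of 65 members were called, against 1 of 3541 probe sets (0.0282%). With the p left unadjusted, 0.05 was passed by 1 member higher and 2 lower, against 4.46% of all (1.78% higher, 2.68% lower). The median difference over the members was -0.02, against 0.01 over all tested probe sets. The kainate and saline arrays did not overlap for 6 members (3 higher, 3 lower), which is 9.23% of them, against 10.6% of all probe sets (6.02% higher, 4.63% lower). With 3 arrays against 3 an exact two-sided permutation test cannot go below p = 0.1.

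Those 6 members were Trim28, Rnf214 and Fbxw9, above, and Trim23, Fbxo17 and Usp46, below. Trim28, the co-repressor of KRAB zinc finger proteins, read 7.03, 7.08 and 7.29 in control kainate and 6.99, 6.42 and 6.53 in control saline (difference 0.49 ± 0.25, adjusted p = 1 in limma). It differed by 0.04 within replicate 1 and by 0.71 within replicates 2 and 3. Trim23, a ligase with an ARF GTPase domain, read 6.66, 6.43 and 6.46 in control kainate and 6.74, 7.41 and 7.34 in control saline (-0.65 ± 0.32). Usp46, which in C. elegans stabilizes a glutamate receptor, read 9.96, 9.84 and 9.74 in control kainate and 10.03, 10.25 and 10.08 in control saline (-0.27 ± 0.23). Rnf214 (165759_at) read 6.67, 6.70 and 6.60 in control kainate and 6.45, 6.41 and 6.47 in control saline (0.21 ± 0.08). For Fbxo17, a relative of the sugar-binding Fbxo2, the difference was -0.32 ± 0.26 near the dim level.

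In mutant mice 0 of 65 members were called after kainate, against 1 of 3541 (0.0282%). At an unadjusted p under 0.05 there were 1 higher and 7 lower, which is 12.3% of the members, against 8.47% of all probe sets (1.55% higher, 6.92% lower). The median difference was -0.12 over the members and -0.08 over all. Without mutant kainate replicate 3 it was -0.02 over the members and -0.05 over all, and after another quantile normalization -0.01 and 0.01. Arrays did not overlap for 4 members, against 10.1% of all probe sets (1.67% higher, 8.44% lower). Rnf185, Rnf25 and Usp33 were lower and Usp35 higher. Rnf185, a ligase of endoplasmic reticulum-associated degradation, read 7.67, 7.80 and 7.10 in mutant kainate and 8.07, 8.03 and 7.98 in mutant saline (-0.51 ± 0.16, adjusted p = 0.579 in limma). Rnf25 read 7.82, 7.65 and 6.07 in mutant kainate and 7.84, 7.87 and 7.96 in mutant saline (-0.71 ± 0.37). Mutant kainate replicate 3 carries much of both: without it Rnf185 differed by -0.29 and Rnf25 by -0.16. Usp33, a protease acting on the axon guidance receptor Robo1, differed by -0.36 ± 0.18 (-0.19 without that array), and Usp35 by 0.13 ± 0.05 (0.13 without it).

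The 5 conjugating enzymes had a median difference of -0.79 in mutant mice after kainate and -0.02 in control mice. Ube2e2 read 9.56, 9.12 and 7.07 in mutant kainate and 9.15, 9.36 and 9.57 in mutant saline, so the groups overlapped and replicate 3 held the low value (-0.78 ± 0.51, -0.02 without that array). Ube2d1, a conjugating enzyme used by many ligases, read 8.81, 8.61 and 7.42 in mutant kainate and 8.74, 9.24 and 9.22 in mutant saline (-0.79 ± 0.34, adjusted p = 0.579, -0.35 without replicate 3). Ube2q2 differed by -1.19 ± 0.44 (adjusted p = 0.579, -0.70 without it). For Ube2j1, which is anchored in the endoplasmic reticulum, the difference was -0.45 ± 0.59 and turned to 0.26 without that array. Removing mutant kainate replicate 1 instead, 2 members were called (3.08%), against 67 of 3541 probe sets (1.89%). They were Ube2q2 (-1.78, adjusted p = 0.0157) and Rnf214 165759_at (-0.36, adjusted p = 0.0459).

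Averaged over both genotypes, 0 of 65 members were called after kainate, against 5 of 3541 probe sets (0.141%). There were 9 members with an unadjusted p under 0.05, 1 higher and 8 lower (13.8%), against 11.3% of all probe sets (3.19% higher, 8.11% lower). Their differences were -1.21 ± 0.53 for Ube2n, -0.80 ± 0.23 for Trim23, -0.78 ± 0.31 for Ube2q2, -0.70 ± 0.24 for Rnf138 (167886_f_at), -0.52 ± 0.18 for Fbxo17, -0.42 ± 0.18 for Usp5, -0.31 ± 0.12 for Usp26, -0.28 ± 0.11 for Rnf185 and 0.46 ± 0.18 for Usp21, with adjusted p from 0.349 to 0.436 in limma. The median was -0.08 over the members, of which 29.2% were positive, and -0.04 over all probe sets, of which 31.6% were positive. This difference in medians was not stable: without mutant kainate replicate 3 they were -0.02 and -0.03. Leaving out that array also gives replicate 1 more weight among the kainate arrays. After another quantile normalization the member median turned to 0.01, with 33 of 65 positive, and that of all probe sets to 0.01. For 0 members did the 6 kainate arrays lie apart from the 6 saline arrays, against 0.847% of all probe sets.

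Within replicates 2 and 3 more was called, among the members and over all probe sets alike. This comes from a fit with separate kainate differences for replicate 1 and for replicates 2 and 3, each averaged over the genotypes. That fit was added after the data were seen, so its p-values are a description and not an independent test. In replicates 2 and 3, 10 of 65 members were called (15.4%), 9 lower and 1 higher, against 335 of 3541 probe sets (9.46%, of which 2.46% higher and 7% lower). In replicate 1, 0 members were called, against 3 probe sets (0.0847%). Replicate 1 holds fewer arrays than replicates 2 and 3 together, so its standard errors are larger and these counts are not like for like. The median member difference was -0.13 in replicates 2 and 3 (-0.07 over all probe sets) and 0.03 in replicate 1 (0.00 over all). Without mutant kainate replicate 3 the median member difference in replicates 2 and 3 was -0.07 (-0.05 over all).

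Ube2n, the conjugating enzyme that builds chains linked through lysine 63 and works in signalling, fell after kainate in replicates 2 and 3. It read 7.64, 5.21 and 4.50 on mutant kainate replicates 1 to 3 and 7.68, 6.90 and 7.41 on mutant saline replicates 1 to 3. On the control arrays it read 7.97, 6.26 and 6.18 after kainate and 7.98, 7.51 and 7.56 after saline. All 4 kainate arrays of replicates 2 and 3 lay below all 4 saline arrays, while the replicate 1 arrays were alike. The mean was 5.54 after kainate and 7.34 after saline in replicates 2 and 3 (-1.80 ± 0.23, adjusted p = 0.00422 in limma, 0.286 of the saline signal), and the difference in replicate 1 was -0.03.

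Usp5, the protease that takes apart unanchored ubiquitin chains, fell too. Its values were 7.05, 6.14 and 6.20 in mutant kainate, 6.65, 6.96 and 6.72 in mutant saline, 6.80, 6.10 and 6.11 in control kainate and 6.84, 6.98 and 6.78 in control saline. The 4 low arrays were the kainate arrays of replicates 2 and 3, and its difference there was -0.72 ± 0.08 (adjusted p = 0.00285 in limma), against 0.18 in replicate 1. Trim23 read 6.73, 5.93 and 5.60 in mutant kainate and 6.64, 6.93 and 7.54 in mutant saline, beside the control values given above. It differed by -1.20 ± 0.17 in replicates 2 and 3 (adjusted p = 0.00728).

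The other conjugating enzyme called was Ube2q2, with 7.06, 5.68 and 4.88 in mutant kainate, 6.83, 7.05 and 7.31 in mutant saline, 6.92, 6.79 and 6.53 in control kainate and 6.88, 7.20 and 7.25 in control saline. It fell by 1.23 ± 0.28 (adjusted p = 0.0344), and its lowest arrays were mutant. Among the RING-type proteins Trim2, a neuronal ligase acting on neurofilament light chain, fell by 1.07 ± 0.20 (adjusted p = 0.0207). It read 6.22, 4.60 and 5.27 in mutant kainate, 5.81, 5.80 and 6.39 in mutant saline, 6.45, 5.13 and 5.35 in control kainate and 6.61, 6.31 and 6.13 in control saline. One of the Trim37 probe sets, 138969_at, fell by 1.13 ± 0.26 (adjusted p = 0.0341), while the other, 166810_at, differed by -0.11 ± 0.10.

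Rnf138 (167886_f_at), a ligase known from DNA repair, fell by 1.15 ± 0.16 to a kainate mean of 3.79, under the dim level, so the size is uncertain, and its other probe set 169471_at differed by -0.11 ± 0.05. Fbxo17 fell by 0.78 ± 0.18 to a kainate mean of 3.81. Usp33 fell by 0.45 ± 0.09 (adjusted p = 0.0249). The single member that rose was Usp21, a protease for ubiquitin on histone H2A, by 0.60 ± 0.10 (adjusted p = 0.011). Its saline arrays there averaged 3.89, under the dim level.

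**Figure D2:**
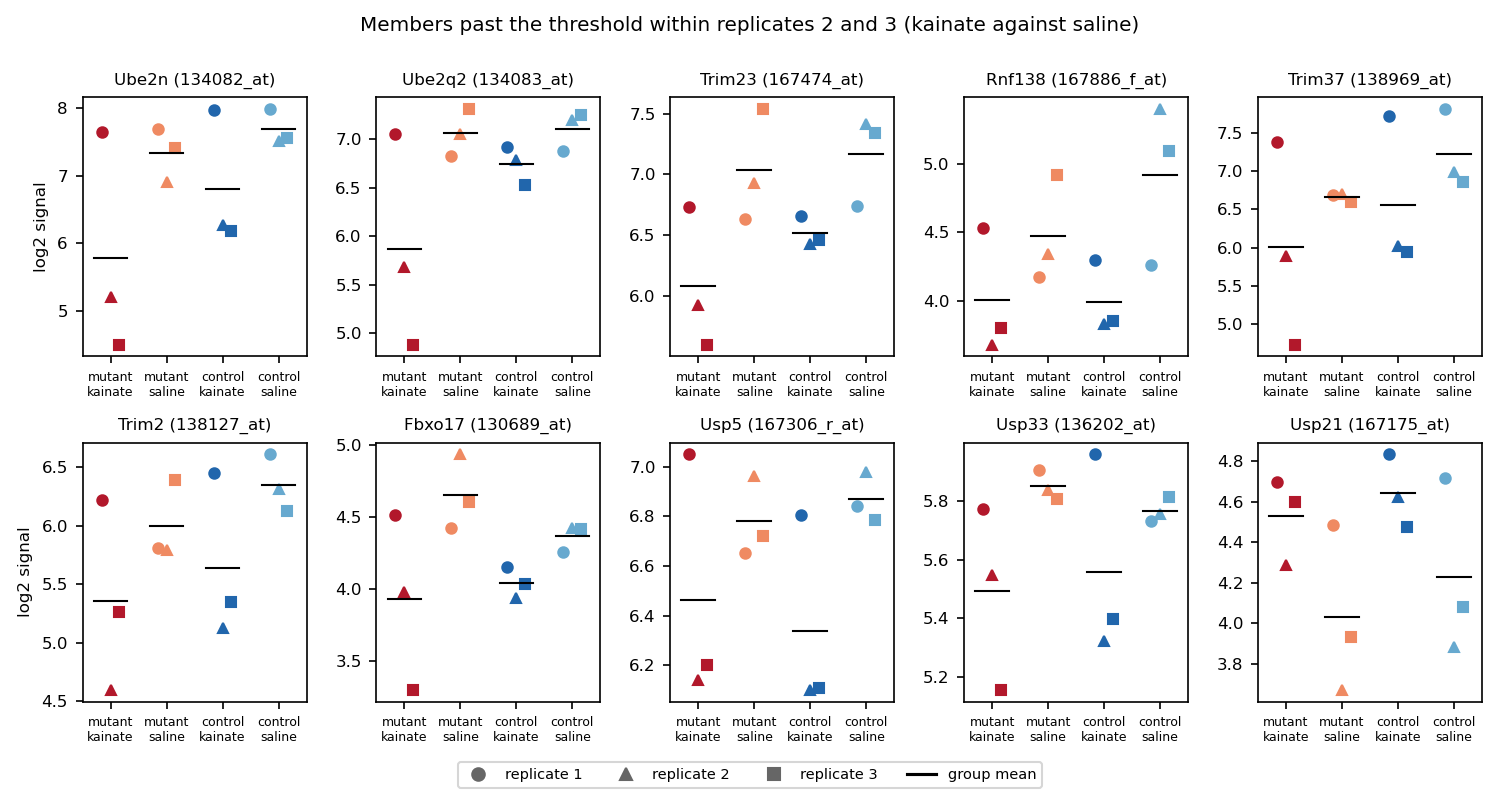
Log2 signal (vertical axis) of the 10 members called within replicates 2 and 3, one panel each, on the 12 arrays by group, with circles, triangles and squares for replicates 1, 2 and 3 and a bar for the mean of 3 arrays. For Ube2n the triangles and squares after kainate (4.50 to 6.26) lie below those after saline (6.90 to 7.56), and the circles lie between 7.64 and 7.98.

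The difference between the replicate sets was also computed in that fit, which was added after the data were seen. The p-values for this split are therefore a description too. With all arrays 0 of 65 members passed, against 4 of 3541 (0.113%), and 14 members had an unadjusted p under 0.05, against 11.7% of all. Usp5 came closest (-0.90 ± 0.14, adjusted p = 0.0738 in limma). Without mutant kainate replicate 3, 3 members passed (136 probe sets, 3.84%): Ube2n by -1.55 (adjusted p = 0.0207), Usp5 by -0.90 (adjusted p = 0.0207) and Trim28 by 0.59 (adjusted p = 0.0378). Without that array and the array labelled control kainate replicate 3, 5 members passed (4.07% of all), with Ube2d1 and Rnf213 added to those 3. The calls within replicates 2 and 3 came to 14 members (21.5%) without mutant kainate replicate 3, against 17% of all probe sets. Without both arrays they came to 14 (21.5%), against 13.9%.

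The RNA quality measure moved with these differences: the kainate minus saline difference of the 3' minus 5' actin signal was 0.52 in replicates 2 and 3 and -0.27 in replicate 1. Among listed markers of cell types, 2 of the 4 tested astrocyte genes were called higher in replicates 2 and 3 (Apoe by 0.77, Pla2g7 by 0.35). The saline arrays of Apoe there read 3.69 to 3.76, under the dim level, and Pla2g7 ran from 4.36 to 4.87 over all arrays. The other 2, Gfap (0.62) and Slc1a2 (0.34), were not called. Dynlrb2, the only tested gene of choroid plexus and ependyma, was called lower (-0.32). Summed over the 4 astrocyte genes, the log2 signal was 11.62 to 13.06 in mutant kainate, 12.27 to 13.01 in mutant saline, 11.53 to 13.00 in control kainate and 10.87 to 11.62 in control saline. The tested marker of oligodendrocytes (Olig1, 1 of 10 listed), those of microglia (3 of 10) and that of endothelium (Flt1, 1 of 8) were not called. The part of RNA quality and of cell makeup in the member differences was not tested, and in bulk RNA fewer cells of a type and less RNA per cell cannot be told apart.

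**Figure D3:**
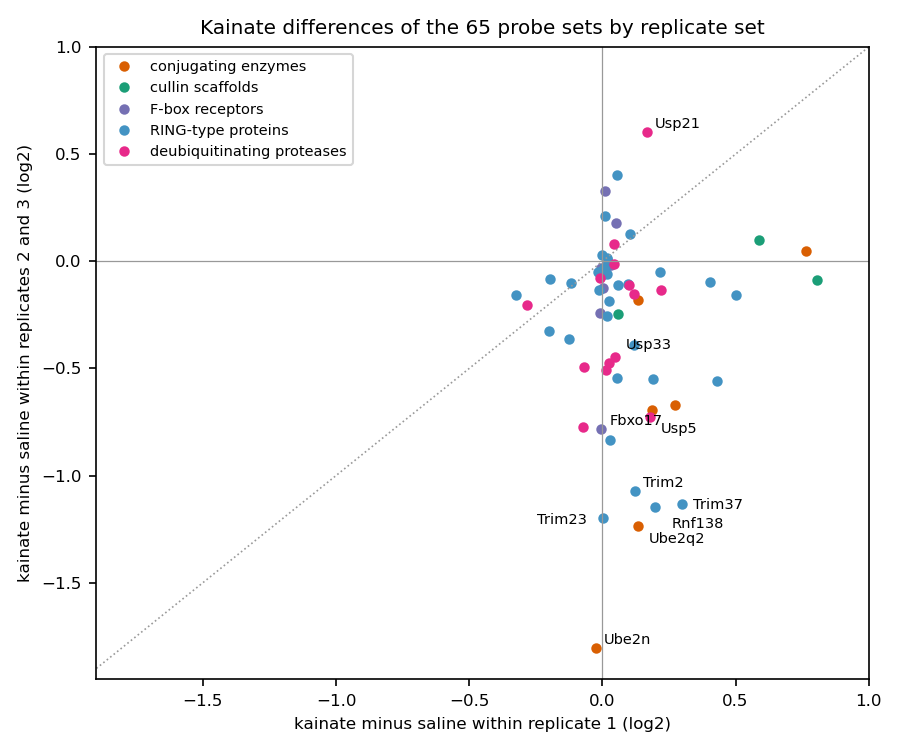
Kainate minus saline difference (log2) of the 65 tested member probe sets within replicate 1 (horizontal axis) and within replicates 2 and 3 (vertical axis), coloured by role, with equal values on the dotted line and names for the 10 called members. Ube2n lies at -0.03 on the horizontal and -1.80 on the vertical axis, and 12 of the 65 points lie above 0 on the vertical axis against 48 right of 0 on the horizontal one.

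Mutant and control mice were then compared, to ask which members depend on CREB and CREM. These comparisons use the same 12 arrays as those of kainate and are not independent of them. After saline 0 of 65 members were called, against 0 of 3541 probe sets (0%), and 1 was higher and 1 lower at an unadjusted p under 0.05, against 12.1% of all (10.7% higher, 1.41% lower). The median was -0.04 over the members and 0.04 over all probe sets. Mutant arrays lay apart from control arrays for 8 members, 5 higher and 3 lower (12.3%), against 34.1% of all probe sets. Of all probe sets 29% lay higher and 5.11% lower.

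Trim37, a ligase of centriole control that is lost in mulibrey nanism, was the member with the lowest p for genotype over both treatments. Its probe set 166810_at read 10.48, 10.50 and 10.71 in mutant saline and 10.74, 11.07 and 10.90 in control saline, so the mutant arrays lay below the control arrays by a small margin (-0.34 ± 0.12, adjusted p = 0.385 in limma). After kainate it read 10.52, 10.73 and 10.41 in mutants and 10.89, 10.95 and 10.67 in controls (-0.28 ± 0.12, adjusted p = 0.55), with overlap. Averaged over both treatments the difference was -0.31 ± 0.09 (adjusted p = 0.247), and it was -0.31 in replicate 1 and -0.31 in replicates 2 and 3 taken alone. Its mutant saline arrays in probe set 138969_at also lay below the control saline arrays (-0.55 ± 0.66), a difference smaller than its error.

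The other members lying apart after saline had small differences. Trim69 read 4.22, 4.36 and 4.26 in mutant saline and 4.13, 4.04 and 4.13 in control saline (0.18 ± 0.07, adjusted p = 0.385 in limma). Rnf141 differed by 0.12 ± 0.07, Rnf223 by 0.09 ± 0.06, Trim41 by 0.04 ± 0.06 and Usp35 by 0.03 ± 0.05. Trim9, a neuronal ligase tied to the netrin receptor DCC, read 5.03, 4.52 and 5.00 in mutant saline and 5.26, 5.07 and 5.03 in control saline (-0.27 ± 0.53). The gap between its nearest arrays was far smaller than this error.

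After kainate 0 of 65 members were called between the genotypes, against 0 of 3541 (0%), with 1 higher and 3 lower at an unadjusted p under 0.05, against 4.72% of all (0.904% higher, 3.81% lower). The median was -0.12 over the members and -0.03 over all, but -0.02 and 0.02 without mutant kainate replicate 3. Arrays lay apart for 5 members, 1 higher and 4 lower (7.69%), against 6.21% of all (2.43% higher, 3.78% lower). Rnf214 (165759_at) read 6.42, 6.20 and 6.13 in mutant kainate and 6.67, 6.70 and 6.60 in control kainate (-0.40 ± 0.08, adjusted p = 0.55 in limma, -0.35 without mutant kainate replicate 3). Without mutant kainate replicate 1 it was called (-0.49, adjusted p = 0.0338). Its probe set 167364_at read 6.78, 6.68 and 5.04 in mutants and 7.01, 6.97 and 6.98 in controls (-0.82 ± 0.39, -0.26 without replicate 3), so both lay lower in mutants.

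Usp35 read 5.00, 5.09 and 5.03 in mutant kainate and 4.91, 4.87 and 4.89 in control kainate (0.15 ± 0.05, adjusted p = 0.55), and it was also higher in each mutant saline array, though by less. Cul5, the scaffold of ligases that end reelin signalling by degrading Dab1, read 8.94, 8.81 and 7.97 in mutant kainate and 9.001, 9.03 and 9.13 in control kainate (-0.48 ± 0.22, -0.18 without replicate 3). Rnf103, a ligase of endoplasmic reticulum-associated degradation, read 7.18, 7.08 and 5.89 in mutants and 7.45, 7.49 and 7.38 in controls (-0.72 ± 0.29, -0.31 without replicate 3). The 5 conjugating enzymes had a median of -0.90 after kainate with 0 of 5 positive, against 46.5% positive over all probe sets. Without mutant kainate replicate 3 their differences ran from -0.38 for Ube2n and -0.37 for Ube2q2 to -0.14 for Ube2e2. That array was the lowest of the 3 mutant kainate arrays for each of the 5. Leaving it out gives replicate 1 more weight in the mutant mean than in the control mean. The differences with and without it are therefore not like for like.

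Averaged over both treatments, 0 of 65 members were called between the genotypes, against 0 of 3541 (0%). At an unadjusted p under 0.05 there were 2 higher (Trim69 and Usp35) and 3 lower (Trim37 166810_at, Rnf214 165759_at and Fbxl17), against 19.1% of all probe sets (14.3% higher, 4.8% lower). Fbxl17, an F-box protein of BTB domain quality control, differed by -0.24 ± 0.09 (adjusted p = 0.247 in limma). The difference was -0.21 in replicate 1 alone and -0.25 in the other 2 replicates. It read 5.25, 5.06 and 4.98 in mutant kainate, 5.38, 5.19 and 5.32 in control kainate, 5.11, 4.90 and 4.74 in mutant saline and 5.41, 5.05 and 5.14 in control saline, so the groups overlapped in both treatments. The median over the members was -0.10, with 35.4% positive, and -0.01 over all probe sets, with 48.9% positive, and without mutant kainate replicate 3 it was -0.03 and 0.02. For 0 members did the 6 mutant arrays lie apart from the 6 control arrays, against 0.678% of all probe sets.

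**Figure D4:**
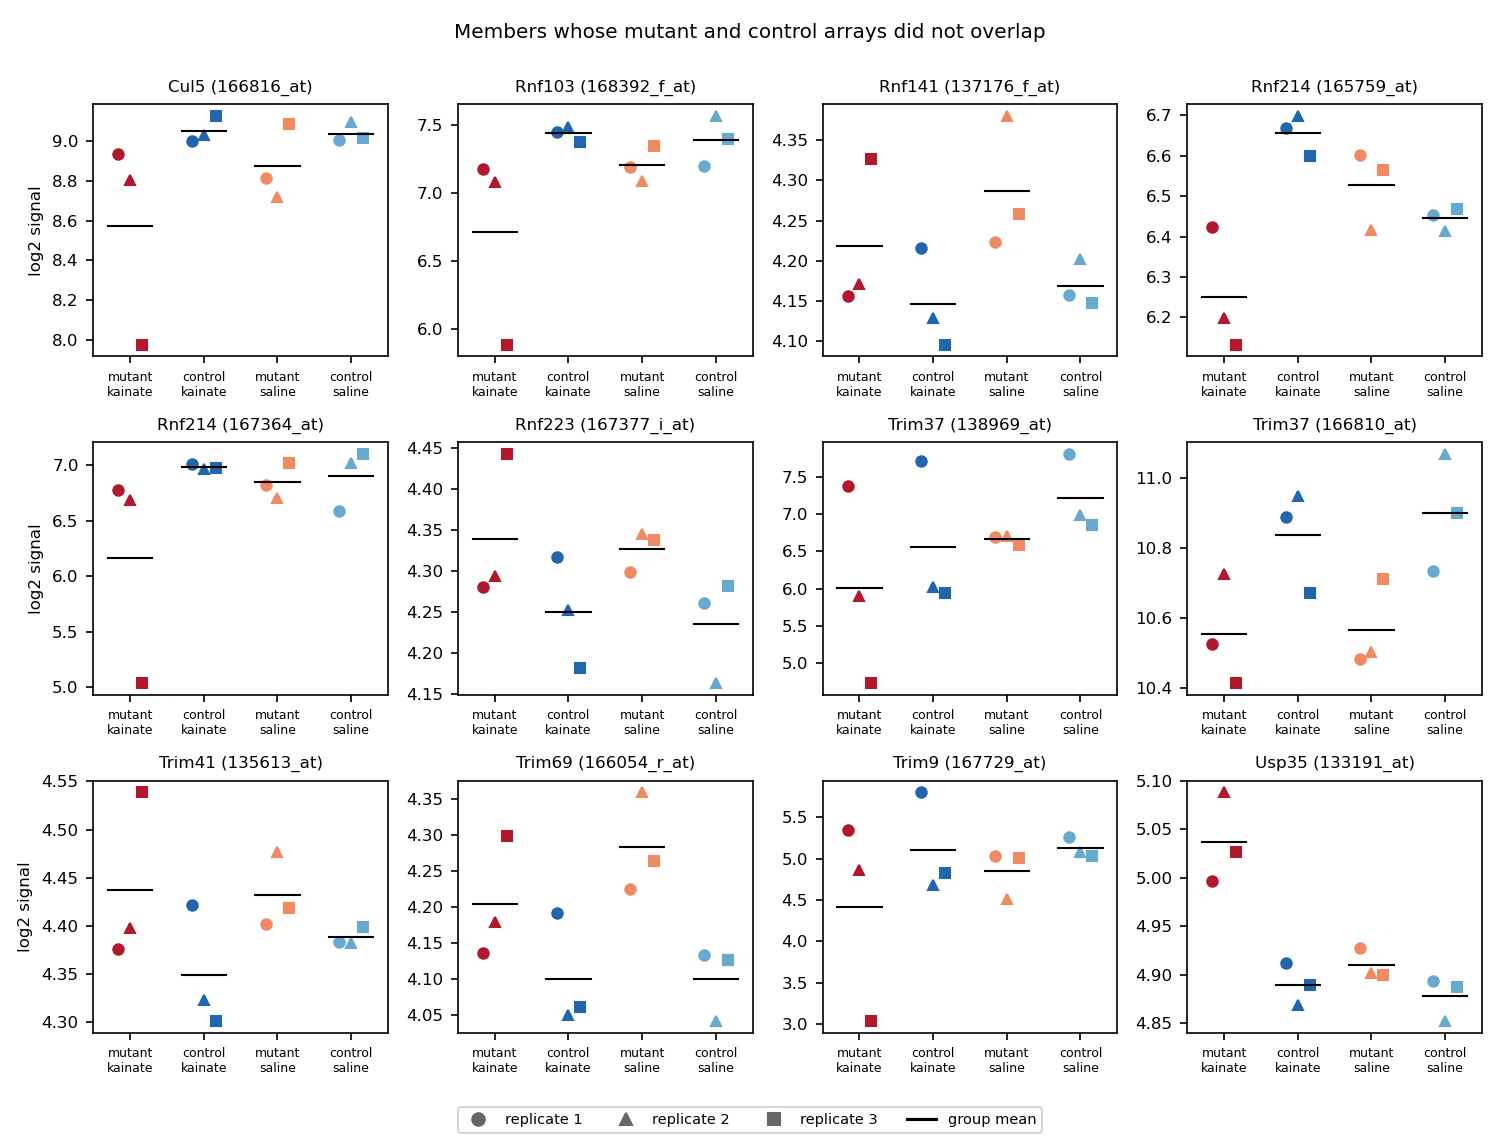
Log2 signal (vertical axis) of the 12 member probe sets whose mutant and control arrays lay apart after kainate, after saline or both, on the 12 arrays by group, with circles, triangles and squares for replicates 1, 2 and 3 and a bar for the mean of 3 arrays. For Usp35 the mutant kainate arrays (5.00 to 5.09) lie above the control kainate arrays (4.87 to 4.91), and for Cul5 and Rnf103 mutant kainate replicate 3 (7.97 and 5.89) lies far below the rest.

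Whether the kainate difference itself depends on genotype was tested as an interaction, mutant minus control. It called 0 of 65 members, against 0 of 3541 probe sets (0%), and 1 member had an unadjusted p under 0.05, against 0.875% of all (0.198% higher, 0.678% lower). This was Rnf214 (165759_at), with -0.49 ± 0.12 (adjusted p = 0.973 in limma). In mutants the kainate array was below the saline array of the same number for 3 of 3 numbers, and in controls it was above for 3 of 3. The labels do not say that arrays of the same number are paired. In mutants such kainate and saline arrays deviated together from their group means in replicate 1 (correlation 0.479). In replicates 2 and 3 they hardly did (0.0448 and -0.0779). The interaction was -0.39 within replicate 1 and -0.53 within replicates 2 and 3. The members farthest from 0 were Rnf182, a brain-rich ligase, with -0.997 ± 0.64, Ube2e2 with -0.85 ± 0.73, Usp54 with -0.84 ± 0.76, Ube2q2 with -0.83 ± 0.63, Ube2d1 with -0.77 ± 0.48 and Rnf214 167364_at with -0.77 ± 0.55, all with an adjusted p of 0.973. Without mutant kainate replicate 3 these interactions were -0.37 for Rnf182, -0.09 for Ube2e2, -0.06 for Usp54, -0.33 for Ube2q2, -0.34 for Ube2d1 and -0.20 for Rnf214 167364_at. Rnf182 read 8.14, 7.31 and 5.85 in mutant kainate, 8.03, 8.19 and 8.22 in mutant saline, 8.16, 8.23 and 7.81 in control kainate and 8.21, 8.15 and 7.99 in control saline, so mutant kainate replicate 3 held the lowest value. The median interaction was -0.14 over the members and -0.09 over all probe sets, and without that array it was -0.01 over the members and -0.04 over all.

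The tested members of the list of genes studied in neurons differed in how far they ranged over the 12 arrays. Ube2n, Trim37 (138969_at), Trim9 and Trim2 ranged widely, by 3.48, 3.07, 2.77 and 2.01. Rnf13, a ligase of endosomal membranes, ranged by 1.46 and Usp46 by 1.36. Mutant kainate replicate 3 held the lowest value of Trim9 (3.03) and of Rnf13 (3.79). Rnf10, a messenger from NMDA receptors to the nucleus, ran from 7.03 to 7.15 in probe set 137235_f_at, a range of 0.12, and ranged by 0.56 in its other probe set. Trim37 in probe set 166810_at ranged by 0.66, and Usp48 ran from 4.26 to 4.60. Of members outside that list, named after their values were seen, Fbxl20 (Scrapper), which controls the turnover of the presynaptic protein RIM1, ran from 4.80 to 5.14. Fbxo7, mutated in a form of parkinsonism, ran from 4.41 to 4.67, and Fbxl19, a CpG-binding F-box protein, from 5.75 to 5.81. Rnf157 (167218_at), a ligase of neuronal survival, read 8.72 or more on the 4 replicate 1 arrays and 6.54 to 7.76 on the other 8 arrays, in every group, while its probe set 168158_r_at ran from 7.68 to 8.20.

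For 11 genes 2 or more probe sets were tested, 23 probe sets in all. The averaged kainate differences had the same sign in all probe sets of 9 of the 11 genes, and the averaged genotype differences in 8 of 11. Trim37 differed after kainate by -0.66 ± 0.47 in 138969_at and by -0.04 ± 0.09 in 166810_at. Rnf41, a ligase that limits the receptor ErbB3, differed after kainate by -0.29 ± 0.25, -0.21 ± 0.17 and -0.09 ± 0.10 in its 3 probe sets. Rnf138 differed by -0.70 ± 0.24 in 167886_f_at and by -0.06 ± 0.05 in 169471_at. For Usp30, the mitochondrial protease that opposes parkin, the genotype differences were -0.36 ± 0.34 and -0.08 ± 0.15. Usp31 had -0.56 ± 0.33 in 165725_at and 0.11 ± 0.17 in 136666_at for genotype, opposite in sign. Cul2, the scaffold of the VHL ligase, had -0.95 ± 0.48 and -0.10 ± 0.16 for genotype, and mutant kainate replicate 3 read 3.26 in the first of these against 4.25 to 6.63 on the other arrays.

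**Figure D5:**
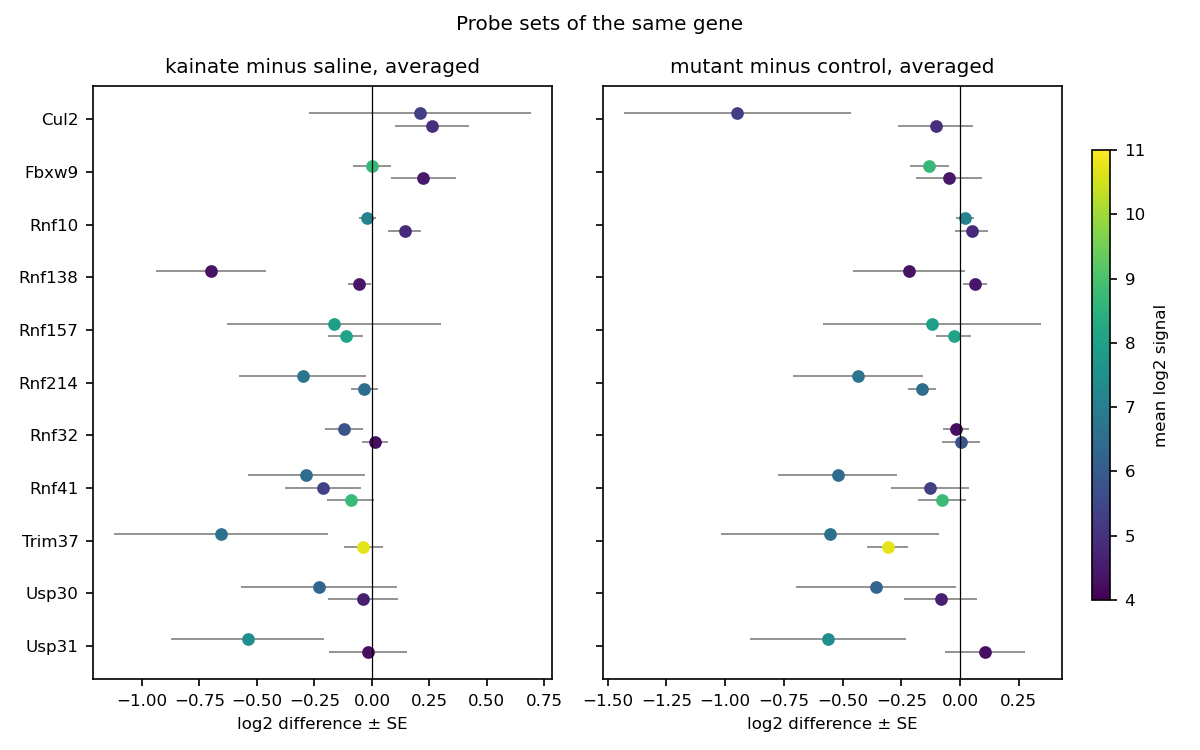
Averaged kainate difference (left, kainate minus saline) and averaged genotype difference (right, mutant minus control), in log2 with bars of ± 1 standard error, of the 23 tested probe sets of the 11 genes with more than 1, coloured by mean log2 signal. The probe sets of Rnf138 lie at -0.70 and -0.06 for kainate, and those of Cul2 at -0.95 and -0.10 for genotype.

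The other parts of the ubiquitin system were followed in lists of genes that are no members. Tested were 2 of 26 listed genes of ubiquitin, its relatives and activating enzymes, 2 of 52 of the proteasome, 8 of 52 of SCF, COP9 and anaphase-promoting complex parts, 26 of 127 other ligases, 8 of 44 other deubiquitinating and SUMO or NEDD8 enzymes and 7 of 37 ubiquitin receptors and p97 partners. In the 7 comparisons 0 of their probe sets were called higher or lower. Averaged after kainate, 1 was higher and 4 were lower at an unadjusted p under 0.05 among 30 probe sets of the other ligases, beside 3.19% higher and 8.11% lower over all probe sets. There were 0 higher and 4 lower among 8 of other deubiquitinating enzymes, 1 higher and 1 lower among 10 of SCF, COP9 and anaphase-promoting complex parts and 1 lower among 2 of the proteasome. For the 8 of receptors and p97 partners and the 2 of activating enzymes and ubiquitin relatives there were 0. The median was -0.07 for the other ligases, -0.20 for other deubiquitinating enzymes, -0.32 for SCF, COP9 and anaphase-promoting complex parts and -0.14 for receptors, against -0.04 over all probe sets. The values farthest from 0 were -0.91 ± 0.36 for Otud6b, -0.86 ± 0.44 for Mdm2, the ligase for p53, -0.85 ± 0.38 for Klhl2 and -0.83 ± 0.27 for Hectd2, with adjusted p from 0.349 to 0.508 in limma. Hectd2 has more than 1 tested probe set, and this value is from the probe set called below.

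Within replicates 2 and 3, 6 of the 30 probe sets of other ligases fell and 1 rose after kainate, 2 of 8 of other deubiquitinating enzymes fell and 1 of 2 of the proteasome fell, beside 7% lower and 2.46% higher over all probe sets. Called were 0 of 10 of SCF, COP9 and anaphase-promoting complex parts, 0 of 8 of receptors and p97 partners and 0 of 2 of activating enzymes and ubiquitin relatives. Xiap, an inhibitor of caspases with ligase activity, differed by -1.22 ± 0.15 (adjusted p = 0.00422) and Mdm2 by -1.27 ± 0.27 (adjusted p = 0.0302). The called probe set of Hectd2 differed by -1.26 ± 0.12 (adjusted p = 0.00207). Its kainate arrays in replicates 2 and 3 read 4.12 to 4.24, near the dim level. The other tested probe set of Hectd2 differed by 0.01 ± 0.06 and was not called. Dzip3 differed by -1.16 ± 0.13, Otud6b by -1.33 ± 0.18 and the proteasome subunit Psma3 by -0.45 ± 0.08 (adjusted p = 0.0179). The remaining calls were Marchf11 (-0.58 ± 0.10), Neurl1a (-0.57 ± 0.12) and Otud3 (-0.67 ± 0.15), and the riser was Mkrn1 (0.97 ± 0.18, adjusted p = 0.0207). In replicates 2 and 3 the kainate arrays of Dzip3 read 3.83 to 4.42 and those of Otud3 3.71 to 4.71. Both reach under the dim level, so the sizes of these 2 falls are uncertain. The other tested probe set of Neurl1a differed by 0.15 ± 0.11, opposite in sign, and that of Marchf11 by -0.35 ± 0.24. Neither was called.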

How the data were processed

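Hippocampal RNA was measured on 12 single-colour arrays, 3 for each of 4 groups named by the labels. The deposited values are log2 GCRMA signals per probe set, made by the authors in R 2.4.1 per the submitters' processing notes; the GCRMA version is not given in the sources used here. They were used as deposited. Probe sets took their symbols from the platform annotation, and those with several symbols or none were not named. Of 11868 probe sets, 3541 with log2 4 or more on at least 3 arrays were fitted with limma 3.58.1 in R 4.3.3 (lmFit, contrasts.fit, eBayes) as 4 group means with 8 residual degrees of freedom. P-values were adjusted by Benjamini-Hochberg over the 3541 in each of 7 comparisons, threshold 0.05. The fit by replicate set has 6 residual degrees of freedom. The scripts for the fits were tested on simulated data.

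The members and the lists were chosen with earlier results of these data known. Named are members called in any comparison, up to 6 with arrays that lie apart or the 6 farthest interactions, the 4 with most signal per role, genes with several probe sets, members studied in neurons and those next to the dim level, and per list up to 4 genes by size. The members called within replicates 2 and 3, those with an unadjusted p under 0.05 and 3 members with small ranges were named after their values were seen. Same-numbered arrays deviated together from their group means (correlations 0.19 to 0.855), except for kainate in mutants in replicates 2 and 3 (0.0448 and -0.0779). In replicate 1 that correlation was 0.479. The number of arrays limits the precision.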

Additional observations from a re-analysis of the deposited data

How the results depend on the processing

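Quantile normalization, no dim filter or a stricter one, a variance trend, the replicate-set block, leaving out the doubted arrays (with and without that block), and the strongest probe set per gene left the number of called members at 0 in all 7 comparisons, and so did a fit to only the arrays compared in the 4 comparisons of 3 arrays with 3. The replicate block gave 0 called members in all 7 too and changed no call. Array weights called 3 members for kainate in control mice (113 of all 3541 probe sets), 20 for kainate in mutants (30.8%, against 28.4% of all), 11 for genotype after kainate (16.9%, against 13.5%), 18 for averaged kainate (27.7%, against 28.7%), 11 for averaged genotype (16.9%, against 26.5%) and 1 for the interaction (2 of all). The weights were 0.05674 for mutant kainate replicate 3 and 28.75 for mutant kainate replicate 2, from an estimate that had not converged. The cause was not tested.

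Leaving out single arrays moved the called members from 0 to 2 for kainate in mutants, 0 to 1 for genotype after kainate and 0 to 1 for averaged kainate (Ube2q2, -1.07, adjusted p = 0.0249 in limma). The upper end of each came without mutant kainate replicate 1, where 67, 15 and 56 of 3541 probe sets were called. Within replicates 2 and 3 the called members were 10 with all arrays, 14 without mutant kainate replicate 3 and 14 without both doubted arrays. With log2 5 as the dim level the member median was -0.34 for kainate in mutants (-0.26 over all probe sets) and -0.35 for genotype after kainate (-0.32 over all), and with no filter it was 0.0456 for genotype after kainate over all 151 members (0.05 over all). Another quantile normalization brought the member median to -0.01 for kainate in mutants, 0.01 for averaged kainate, -0.03 for genotype after kainate and -0.01 for the interaction. In a tally over part of the values of single named members, 572 kept direction and side of the threshold, and 10 became called, 9 of them under array weights. That tally does not hold all calls of Ube2q2 and Rnf214 without mutant kainate replicate 1 that are given above.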
